A study of Xenopus tropicalis with 9 samples.

Results

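The change in polyadenylated RNA from late blastula to gastrula was measured in whole embryos of the frog Xenopus tropicalis, by comparing the polyA library of stage 9 with that of stage 12, 2 of the 9 libraries of the series. The members were all genes with at least 1 RPKM (mapped reads scaled to the length of the exons and to the depth of the library) in one of the 2 libraries. Of 15288 genes in the table, 10112 met this limit and 5176 were under 1 RPKM in both. A log2 change, stage 12 over stage 9, could be taken for the 10032 genes above 0 in both libraries. A further 61 genes were listed at 0 at stage 9 and 19 at stage 12, and no fold is given for them. A gene is said here to have risen or fallen when its RPKM differed by 2-fold or more.

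Both groups were untreated embryos of outbred frogs, made by in vitro fertilisation in 3 separate crosses and staged by the Nieuwkoop and Faber series. Stage 9 is the late blastula, after the mid-blastula transition, and stage 12 is the gastrula. RNA of each of the 3 biological replicates was passed over oligo(dT) beads in repeated rounds. It was then pooled for each stage and copied into cDNA from random hexamers. With 1 library on each side the error between replicates is unknown, and differences carry no p-value. The 7 other libraries (polyA oocyte and stages 6, 16 and 30, and ribosomal RNA depleted total RNA, here RZ, of oocyte and stages 6 and 9) are not part of the change and are given beside it.

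In a frog embryo the first cleavages run on RNA that the mother stored in the egg, much of it held with a short or a long poly(A) tail that is adjusted in the cytoplasm. The embryo's own genes become widely active at the mid-blastula transition, and during gastrulation the cells move to form ectoderm, mesoderm and endoderm while maternal messages are cleared. RNA captured on oligo(dT) depends both on how much of a transcript is present and on the length of its tail. No RZ library of stage 12 was used here, so that loss of a transcript and loss of its tail cannot be told apart in this comparison. In whole embryos, a change in the number of cells that express a gene and a change in RNA per cell cannot be told apart either.

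Most genes had a lower polyA RPKM in the gastrula than in the late blastula. The median log2 change over the 10032 genes was -1.39, a level 2.62-fold lower at stage 12, with quartiles at -2.46 and -0.17 and the outer 5% on either side beyond -4.08 and 3.47. As deposited, 5939 genes fell (59.2%), 1314 rose (13.1%) and 2779 stayed within 2-fold (27.7%). After subtraction of the median change, 2649 genes fell (26.4%), 2862 rose (28.5%) and 4521 stayed within 2-fold. Both the deposited and the centred change are given for each gene group below, because the deposited values were not scaled between libraries beyond mapped reads. Of the genes past 2-fold, 18.1% were higher at stage 12 as deposited. This share was 28.6% when each library was divided by its summed RPKM, 34.4% when that sum left out the top 1% of genes, and 51.4% when it was divided by its median over the genes present in all polyA libraries.

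**Figure D1:**
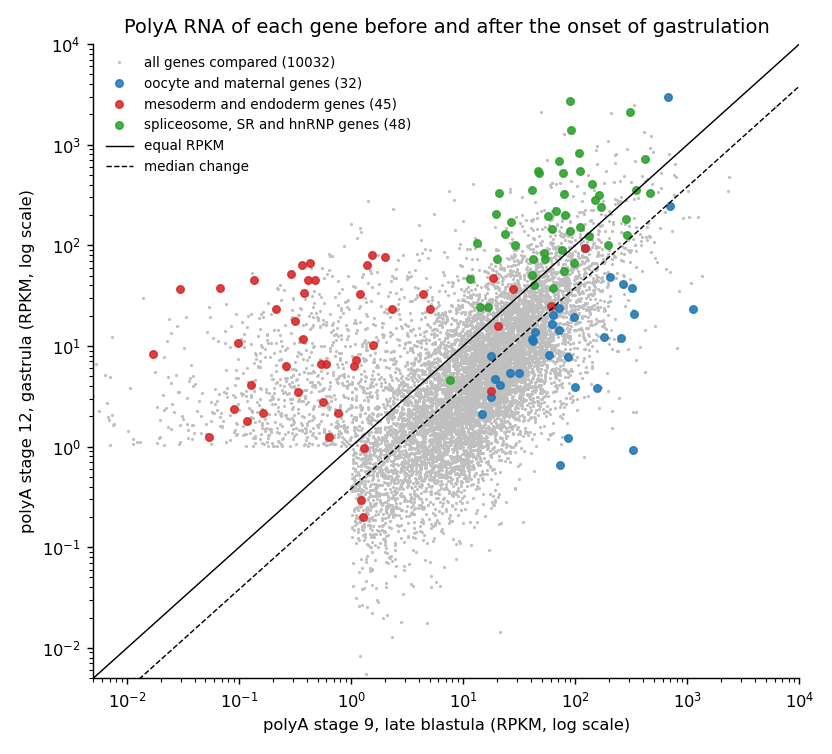
RPKM of each gene in polyA stage 9 (x axis) and polyA stage 12 (y axis), both on log scales, for the 10032 genes above 0 in both libraries. Grey dots are all genes, coloured dots are members of 3 gene lists, the solid line marks equal RPKM and the dashed line the median change of -1.39. Oocyte and maternal genes (blue) lie mostly under the dashed line, mesoderm and endoderm genes (red) mostly far above it at low stage 9 levels, and spliceosome, SR and hnRNP genes (green) above it at high levels.

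The spread of the change was wide. Its SD across genes was 2.26 on the log2 scale. For the steps before it, oocyte to stage 6 and then to stage 9, the SD was 1.48 and 1.22, and for those after it, to stage 16 and then to stage 30, it was 1.79 and 1.57. Neighbouring steps share a library and are given side by side only. By level, the 702 genes under 1 RPKM at stage 9 could pass the filter only through stage 12, and 660 of them rose. For that reason each embryonic gene group below is also given over its members with 1 RPKM or more at stage 9, a set in which 7.01% of all genes rose and 63.7% fell. The median change was -1.39 in the 3637 genes of 1 to 10 RPKM at stage 9, -1.61 in the 5195 genes of 10 to 100 RPKM and -1.71 in the 498 genes of 100 RPKM or more.

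The depth behind these values was worked out from genes whose RPKM multiplied by length gives whole reads. The stage 9 library had 13422644 mapped reads and the stage 12 library 25026931, so that a floor of 3 reads on 1 kb of exon corresponded to 0.224 RPKM at stage 9 and 0.120 RPKM at stage 12. Of the genes that rose, 279 of 1314 (21.2%) were under this floor at stage 9, and for these the size of the rise is not fixed by the data. Only 93 of the 5939 genes that fell (1.57%) were under it at stage 12. The summed RPKM was 295947 at stage 9 and 196370 at stage 12, and the 10 most abundant genes took 6.24% and 10.6% of it.

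Genes of late differentiation had low values at stage 9 that bear on the smallest levels. Of the genes with at least 200 RPKM at stage 30 and under 0.5 RPKM in polyA oocyte, polyA stage 6 and all RZ libraries, 21 in number, none was listed at 0 in polyA stage 9, where they had 0.272 to 11 RPKM, or 0.0818% to 1.21% of their stage 30 level. In polyA stage 12, 5 of them were listed at 0, and in RZ stage 9, 15 were, with 0.235 RPKM as the highest value. The fast skeletal muscle genes mylpf, a myosin light chain, and tnnc2, a troponin C, had 9.99 and 2.11 RPKM at stage 9, 10.4 and 0 at stage 12, and 1004 and 596 at stage 30. The larval globin hba3 had 0.833, 0 and 257 RPKM in the same libraries. The part of such low levels in the changes below was not tested. Of 44 muscle, blood, lens and other differentiation genes that were looked up, 29 were under 1 RPKM in both libraries, 2 were listed at 0 at stage 12, 4 rose and 6 fell (7 and 3 after centring). The other 3 rises came from genes under 1 RPKM at stage 9, since 1 rose and 6 fell over the 10 at or above it. These shares of 10% and 60% were near the 7.01% and 63.7% of all such genes. Without the 401 genes under 2% of a later level at stage 9, an alternative chosen after the data were seen, 932 genes rose and 5932 fell. The rule picks genes by a low stage 9 level, which by construction removes mainly rises. These counts therefore do not measure the part of such low levels.

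Among the lists of 10 or more genes, that of the oocyte and of stored maternal RNA had the lowest median. Of 32 listed genes with a change, 30 fell and 1 rose as deposited (medians -2.45 for the list and -1.39 for all genes), and 16 fell and 2 rose after centring. All 32 had 1 RPKM or more at stage 9, and 93.8% fell and 3.12% rose, beside 63.7% and 7.01% of all such genes. btg4, which in mouse oocytes brings the deadenylase complex to maternal mRNA, was at 369 RPKM in polyA oocyte, 329 in stage 9 and 0.930 in stage 12, a 353-fold fall. Its gene lies on scaffold 7 of the JGI 7.1 assembly, from 75755662 to 75760158. h1foo, the linker histone of eggs, went from 332 to 20.7 RPKM, and bmp15, an oocyte growth factor, from 86.1 to 1.21 RPKM. The zona pellucida genes, which encode the egg coat, fell less far: zp3 had 43.6 RPKM at stage 9 and 13.8 at stage 12, a fall of 1.66 on the log2 scale that was within 2-fold of the median of all genes.

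mos, the kinase that holds the egg in meiosis, is coded in a single exon on scaffold 6 (34033705 to 34037725), so that its reads can be counted. It had 4677 reads at stage 9, or 86.7 RPKM (95% Wilson interval 84.2 to 89.2), and 774 reads at stage 12, or 7.69 RPKM (7.17 to 8.25). The intervals cover counting error only and do not overlap. The fall was 11.3-fold as deposited and 4.30-fold relative to the median. 2 members of the list stood apart. vegt, the maternal T-box gene of the vegetal cells that is also transcribed in the embryo, had 122 and 94.4 RPKM, and eef1a1o, named as the oocyte form of elongation factor 1-alpha, rose from 676 to 3006 RPKM and was the most abundant named gene of the gastrula.

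Germ plasm genes, which belong to the RNA and protein granules inherited by germ cells, also fell. Of 25 genes, 19 fell and 2 rose as deposited, with a median of -2.39, and 13 fell and 5 rose after centring. All 25 had 1 RPKM or more at stage 9, and 76% fell and 8% rose, beside 63.7% and 7.01% of all such genes. spire1, an actin nucleator, had 163 RPKM at stage 9 and 2.39 at stage 12. rbpms2, the RNA-binding protein Hermes, had 380 and 9.68 RPKM, and velo1, a protein of the oocyte's Balbiani body, 99.3 and 3.91 RPKM. nanos1, a translational repressor of germ cells, had 1191 reads and 319 reads (64.1 and 9.21 RPKM). ddx4, the germ cell helicase Vasa, went the other way and rose from 2.41 to 7.64 RPKM, while dazl, a translational activator of germ cells, had 35.9 and 18.8 RPKM, within 2-fold.

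Factors that control mRNA tails and decay fell and rose in shares near those of all genes. Of 54 genes, 33 fell and 8 rose as deposited, and 14 fell and 15 rose after centring, with a median of -1.40 that was close to that of all genes. Over the 52 with 1 RPKM or more at stage 9, 63.5% fell and 11.5% rose, beside 63.7% and 7.01% of all such genes. cpeb1, which binds the cytoplasmic polyadenylation element, fell from 157 to 3.84 RPKM. zfp36l2.1 and zfp36l2.2, which encode binders of AU-rich elements that speed decay, fell from 346 to 2.18 and from 325 to 2.22 RPKM. They are close copies, and reads that mapped to several positions had been left out, so that the level of each is uncertain. drosha and dicer1, which process microRNAs, fell from 55.6 to 2.52 and from 14.2 to 1.52 RPKM. In contrast, the Y-box protein ybx1 rose from 196 to 1093 RPKM, btg1 from 29.3 to 191 RPKM, the Argonaute gene eif2c2 from 1.40 to 11 RPKM and zfp36, a relative of zfp36l2, from 0.127 to 20.6 RPKM.

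Cell cycle genes held large falls and some rises. Of 58 genes, 39 fell and 6 rose as deposited (19 and 14 after centring, median -1.77). Over the 56 with 1 RPKM or more at stage 9, 69.6% fell and 7.14% rose, shares near the 63.7% and 7.01% of all such genes. The mitotic cyclins were among the most abundant messages of stage 9: ccna1, ccnb1 and ccnb2 had 1132, 1082 and 1247 RPKM there and 23.1, 42.5 and 192 RPKM at stage 12. fbxo43 (Emi2), which keeps the egg arrested in metaphase, fell from 72.6 to 0.651 RPKM, birc5.1, a survivin of the chromosomal passenger complex, from 416 to 14.5 RPKM, and wee2, a kinase that restrains Cdk1, from 323 to 37.5 RPKM. The phosphatases that activate Cdk1 parted: cdc25a fell from 154 to 13 RPKM and cdc25b rose from 2.61 to 71.0 RPKM. The others that rose were the G1 cyclin ccnd1 (12.0 to 72.7 RPKM), the retinoblastoma relative rbl1 (0.454 to 24.5 RPKM), the Cdk inhibitor cdknx (2.21 to 19.3 RPKM) and the growth arrest genes gadd45a (3.71 to 56.3 RPKM) and gadd45g (0.449 to 15.5 RPKM).

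DNA replication genes were lower in 43 of 50 cases and higher in 1 as deposited (19 and 4 after centring, median -2.04). Over the 49 with 1 RPKM or more at stage 9, 87.8% fell and none rose, beside 63.7% and 7.01% of all such genes. cdc45, which is part of the replicative helicase, fell from 59.9 to 2.39 RPKM, and orc1, of the origin recognition complex, from 49.2 to 2.98 RPKM. The sliding clamp pcna was higher than both and fell from 277 to 93.0 RPKM, within 2-fold of the median of all genes. The single member that rose was mcm6.2, a second form of the helicase subunit MCM6, with 0.555 RPKM at stage 9 and 18.2 at stage 12. mcm6, the maternal form, fell from 10.3 to 1.84 RPKM, so that the order of both forms was reversed.

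**Figure D2:**
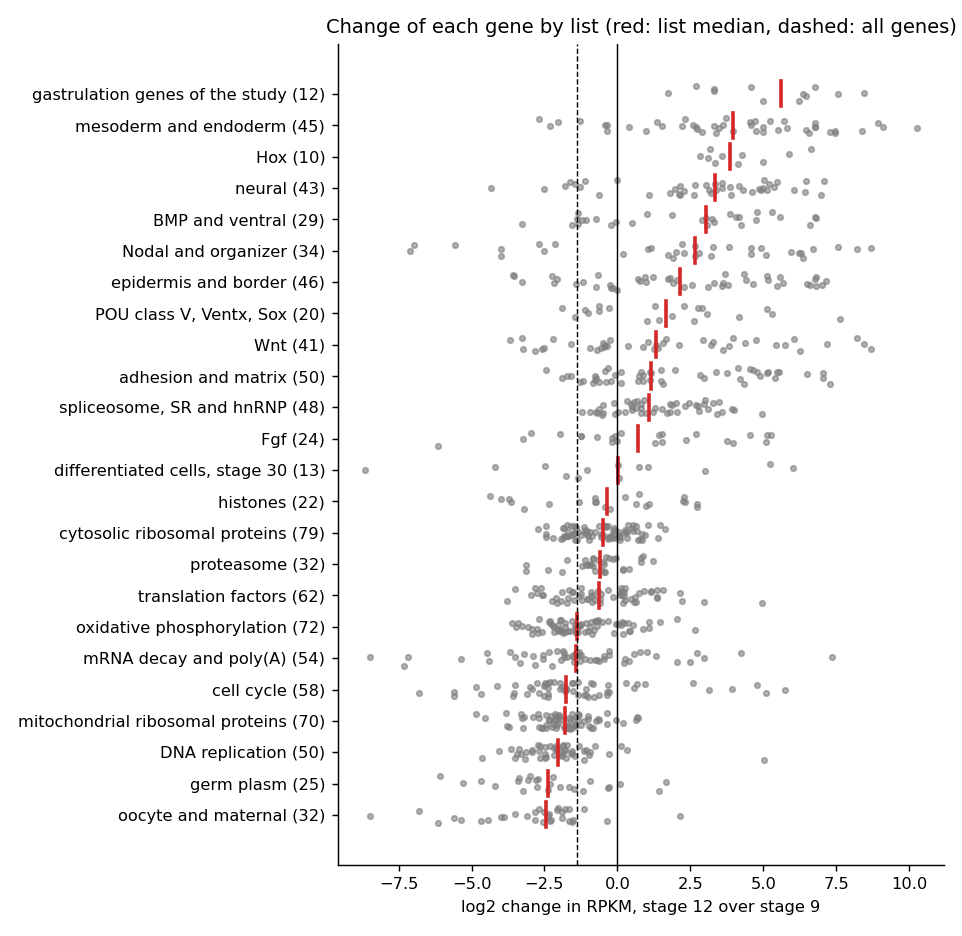
Log2 change in RPKM, stage 12 over stage 9 (x axis), of each gene above 0 in both libraries, for each gene list (y axis, number of genes in brackets). Grey points are genes, red bars the list medians, the dashed line the median of all genes (-1.39) and the solid line no change. The list medians range from -2.45 for the oocyte and maternal genes to 5.59 for the gastrulation genes of the study.

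The largest rises included regulators of the embryonic axis and germ layers. The 15 largest among genes with at least 10 RPKM in the higher library were all under the 3-read floor at stage 9, so that their folds are not given. They included the caudal homeobox genes cdx1 (0.0299 to 36.7 RPKM) and cdx4 (0.0679 to 37.5 RPKM), the endoderm factor gata6 (0.136 to 45.6 RPKM), the secreted Wnt antagonist frzb (0.129 to 53.0 RPKM), the Wnt effector lef1 (0.0551 to 19.2 RPKM) and the growth factor igf2 (0.0235 to 18.6 RPKM). The first of them was ugt3a2, a glycosyltransferase, with 0.0137 and 29.8 RPKM. At the other end, the 15 largest falls included tbpl2, the TATA-binding protein relative of oocytes (21.1 to 0.0145 RPKM), the repressor bcl6 (33.9 to 0.179 RPKM) and the coactivator cited2 (806 to 9.55 RPKM). Both tails thus held transcriptional regulators.

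Mesoderm and endoderm genes rose as a group. Of 49 listed genes that passed the filter, 4 were listed at 0 at stage 9 (fgf4, meox2, mespb and osr1), 36 rose and 4 fell (median 3.96), and after centring 40 rose and 1 fell. Among the 19 members with 1 RPKM or more at stage 9, 11 rose and 4 fell, with a median of 2.2. t (brachyury), the T-box gene of early mesoderm, had 0.366 RPKM at stage 9 and 63.7 at stage 12, and msgn1, of presomitic mesoderm, 0.290 and 51.4 RPKM. The endoderm genes sox17a and mixer rose from 1.54 to 79.9 and from 2.02 to 75.8 RPKM. foxc1, a forkhead gene of mesoderm with a single exon, had 13 reads at stage 9 (0.370 RPKM, 0.216 to 0.633) and 763 at stage 12 (11.7 RPKM, 10.9 to 12.5). The muscle factor myod1 had 8 reads (1.1 RPKM, 0.556 to 2.17) and 98 reads (7.21 RPKM, 5.92 to 8.79). The members that fell were foxd2 (24 and 7 reads), sox7 (17.7 to 3.54 RPKM), hand2 (1.23 to 0.297 RPKM) and cyp26a1, a retinoic acid hydroxylase, whose fall of 1.3 on the log2 scale was less than the median.

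Nodal signalling and the organizer, the dorsal tissue that patterns the axis, held both rises and falls. Of 34 genes with a change, 25 rose and 8 fell as deposited (26 and 7 after centring, median 2.65), and cer1, hesx1 and sebox were listed at 0 at stage 9. Among the 15 members with 1 RPKM or more at stage 9, 6 rose and 8 fell, with a median of -2.13. The members that rose were mainly genes of the formed organizer and its secreted antagonists. chrd (chordin), a BMP antagonist, had 0.574 and 47.2 RPKM, gsc (goosecoid) 0.671 and 16.1 RPKM, foxa4 1.14 and 117 RPKM, otx2 0.943 and 28.6 RPKM, and cer1 (cerberus) 0 and 84.1 RPKM. nog (noggin), with a single exon, had 17 reads and 198 reads (0.760 and 4.75 RPKM).

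The members that fell were mainly the first zygotic genes of the dorsal and vegetal blastula. sia1 and sia2 (siamois), homeobox genes switched on by maternal Wnt signalling, had 3.28 and 5.73 RPKM at stage 9 and 0.205 and 0.0451 RPKM at stage 12. The Nodal ligands nodal3.2, nodal5 and nodal6 had 2.44, 2.06 and 3.4 RPKM at stage 9 and 0.0517, 0.128 and 0.526 RPKM at stage 12. nodal itself rose, from 0.429 to 1.42 RPKM. Copies within these families share sequence, and since reads with several positions had been left out their levels are uncertain. The other members that fell were of maternal origin: dand5 (Coco), a secreted inhibitor of Nodal and BMP ligands, had 812 reads at stage 9 (212 RPKM, 198 to 227) and 11 reads at stage 12 (1.54 RPKM, 0.861 to 2.76), while gdf1 (Vg1) and the co-receptor tdgf1 had 17.8 and 73.7 RPKM before and 3.09 and 16.9 RPKM after.

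Genes with little or no maternal RNA were chosen by their level in other libraries and then counted among the genes that passed the filter. Of the genes under 0.5 RPKM in the polyA and RZ libraries of oocyte and stage 6, 149 had 0.5 RPKM or more in RZ stage 9 and 5107 did not. In the first class 89 genes passed the filter, 67 rose, 18 fell and 1 was listed at 0 at stage 12 (pax7, 2.03 RPKM at stage 9). Of these 89, 53 had 1 RPKM or more at stage 9, and the others entered only by being high at stage 12. Rises and falls were not counted over the 53 alone. Over all 10032 genes compared, 13.1% rose and 59.2% fell. The counts of both classes cannot be read against these shares, because entry through stage 12 favours rises. In the second class 592 passed, 489 rose and 23 fell, but only 60 of the 592 had 1 RPKM or more at stage 9, so that most could enter only by being high at stage 12. Besides the siamois and Nodal genes, the early genes that fell included the zinc finger genes znf33b (11.6 to 1.64 RPKM) and znf350 (4.70 to 0.509 RPKM) and the histone methyltransferase prdm9 (3.22 to 0.125 RPKM). znf33b and prdm9 had 5.69 and 4.30 RPKM in RZ stage 9 and were listed at 0 in both later polyA libraries, stages 16 and 30. The early genes that rose included the T-box gene eomes (2.33 to 23.2 RPKM), the homeobox gene mix1 (5.03 to 23.2 RPKM), the Nodal inhibitor lefty (3.18 to 12.7 RPKM), the BMP-like ligand admp (4.01 to 14.9 RPKM) and gatm, an enzyme of creatine synthesis (2.35 to 230 RPKM).

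**Figure D3:**
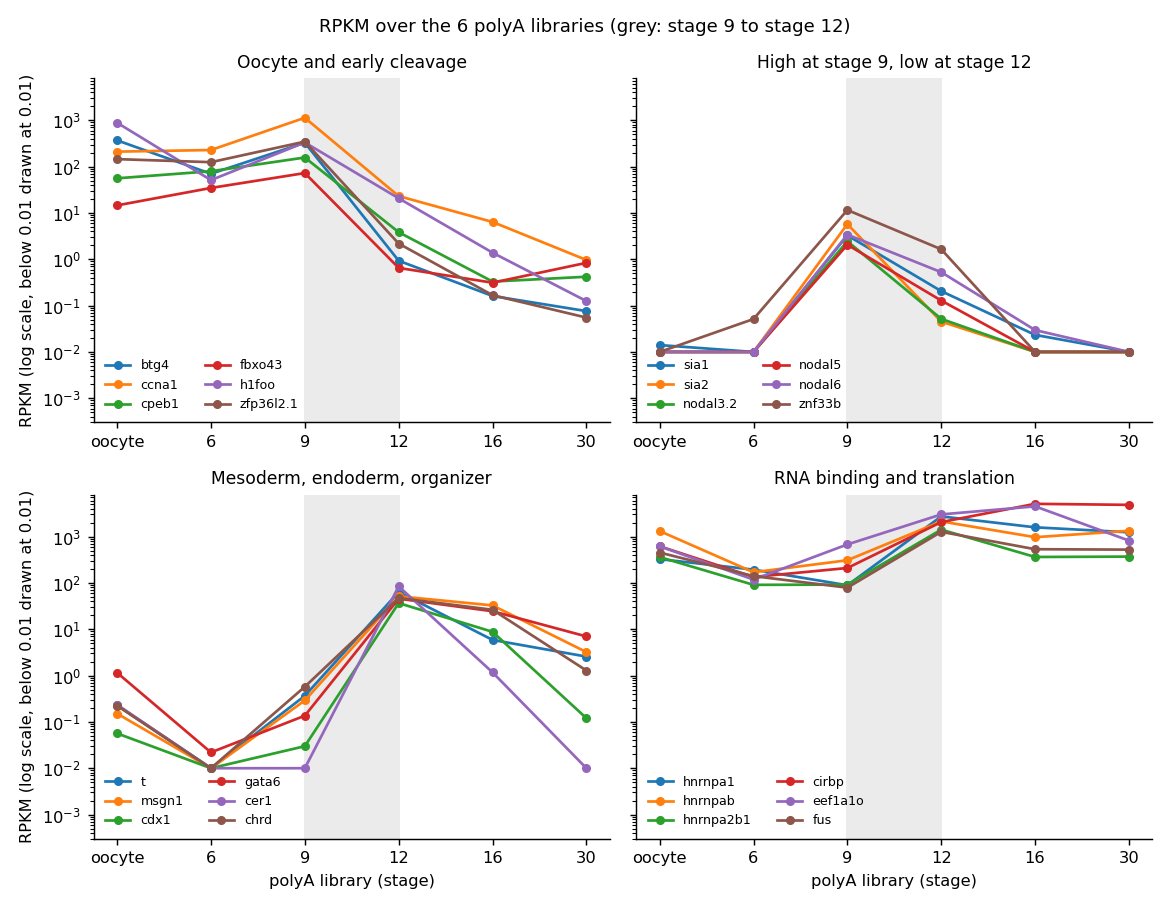
RPKM of 24 genes over the 6 polyA libraries (x axis: oocyte and stages 6, 9, 12, 16 and 30; y axis: RPKM on a log scale, values below 0.01 drawn at 0.01), with the interval from stage 9 to stage 12 in grey. The panels show maternal genes that fall, first zygotic genes that are highest at stage 9, mesoderm, endoderm and organizer genes that are high at stage 12, and RNA-binding and translation genes that are among the most abundant at stage 12.

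BMP and ventral genes were also divided. Of 29 genes, 18 rose and 7 fell as deposited (21 and 1 after centring, median 3.02). Over the 20 members with 1 RPKM or more at stage 9, 9 rose and 7 fell, with a median of 0.22. bmp4, the zygotic ventral ligand, rose from 1.64 to 16.2 RPKM, and bmp2, whose RNA is maternal, fell from 35.1 to 3.65 RPKM. The BMP targets id3 and ventx1.1 rose from 8.41 to 141 and from 5.01 to 90.3 RPKM, and the homeobox gene msx1 had 0.432 and 47.7 RPKM. The receptor bmpr1a and the intracellular inhibitor smad6 fell by 1.08 and 1.38 on the log2 scale, less than the median of all genes. bmp2 was the member that fell after centring.

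The POU class V genes, frog counterparts of the mammalian pluripotency factor Oct4, took different courses. oct25 was higher than oct60 in both libraries, while oct91 was lower than oct60 at stage 9 and higher at stage 12. oct60, the oocyte form, had 41.9 RPKM at stage 9 and 11.1 at stage 12. oct25 had 114 and 275 RPKM, and oct91 1.40 and 274 RPKM, a 196-fold rise. In polyA oocyte oct60, oct25 and oct91 had 79.5, 36.7 and 2.60 RPKM, and at stage 16 they had 0.564, 9.81 and 48.9 RPKM. Their list also held ventx genes, sox2, sox3 and genes of other families, such as myc, sall1, klf5, lin28a and foxd3. Of its 20 genes with a change, 13 rose and 3 fell (14 and 0 after centring, median 1.65). Those that fell were oct60, mycn and sall4. Over the 19 with 1 RPKM or more at stage 9 these numbers were 12 and 3, with a median of 1.42. sox2, a neural and pluripotency factor, rose from 1.5 to 52.7 RPKM, while its maternal relative sox3 stayed within 2-fold at 168 and 108 RPKM. The study names sox3 as the exception to the good correlation it found between polyA sequencing and RT-qPCR from oligo(dT) primers.

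Neural genes rose in 34 of 43 cases and fell in 7 (35 and 2 after centring, median 3.33). Among the 18 with 1 RPKM or more at stage 9, 9 rose and 7 fell, with a median of 0.53. The zinc finger genes of the neural plate took different courses: zic1 rose from 3.42 to 49.5 RPKM, whereas zic2 fell from 113 to 46.8 RPKM, which lay within 2-fold of the median of all genes. otx1, with 114 RPKM at stage 9, fell to 19.9 RPKM. The Notch ligand dll1 had 0.487 and 21.4 RPKM.

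Genes of the epidermis and the neural plate border rose in 28 of 46 cases and fell in 8 (36 and 3 after centring, median 2.15), and over the 28 members with 1 RPKM or more at stage 9 in 11 and 8 cases, with a median of 0.34. tfap2a, a regulator of epidermis and neural crest, rose from 1.23 to 137 RPKM, the epidermal factor grhl3 from 0.635 to 57.3 RPKM and klf17 from 13 to 110 RPKM. Keratins differed. krt8 and krt5.7 rose from 155 to 638 and from 26.1 to 359 RPKM, and at stage 16 they had 2292 and 2163 RPKM. krt12 and krt19 rose as well. In contrast, krt8.2 fell from 33.8 to 8.04 RPKM, and krt18 was within 2-fold at 796 and 481 RPKM. Other members that fell included ets1 (35.8 to 7.52 RPKM) and dlx2 (3.60 to 0.302 RPKM). krt5.7 had 0.582 RPKM in RZ stage 9 beside 26.1 RPKM in polyA stage 9. Of 38 Hox genes, 27 were under 1 RPKM in both libraries, 1 was listed at 0 at stage 9 and the remaining 10 rose, led in level by hoxd1 (1.71 to 54.4 RPKM) and hoxb1 (0.111 to 11.1 RPKM), genes of the anterior end of the clusters. Only hoxd1 had 1 RPKM or more at stage 9.

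In the Wnt pathway, 23 of 41 genes rose and 8 fell (27 and 6 after centring, median 1.31). Of 27 with 1 RPKM or more at stage 9, 9 rose and 8 fell, and their median was -0.41. Among ligands, wnt8a rose from 1.2 to 32.5 RPKM while the maternal wnt11b had 20.4 and 15.7 RPKM. Among receptors, fzd10 and ror2 had 0.463 and 0.249 RPKM at stage 9 and 35.3 and 36.2 RPKM at stage 12, fzd7 rose from 38.2 to 100 RPKM, and fzd1 fell, with 114 and 22 reads (5.06 and 0.524 RPKM). The transducer ctnnb1 (beta-catenin) was within 2-fold at 224 and 288 RPKM, and apc, a member of its destruction complex, fell from 10.9 to 0.844 RPKM. In the Fgf pathway 12 of 24 genes rose and 6 fell (17 and 3 after centring, median 0.70), and over the 18 members with 1 RPKM or more at stage 9 these numbers were 6 and 6, with a median of -0.12. The ligand fgf8 rose from 1.58 to 10.2 RPKM, the receptor fgfr2 from 2.50 to 33.5 RPKM and the feedback phosphatase dusp5 from 1.04 to 39.7 RPKM. fgfr1 had 50.8 and 48.1 RPKM, and fgf9 fell from 5.04 to 0.0718 RPKM.

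Adhesion and matrix genes, through which cells attach and move in gastrulation, rose in 27 of 50 cases and fell in 6 (37 and 1 after centring, median 1.13). Among the 32 with 1 RPKM or more at stage 9, 9 rose and 6 fell, with a median of 0.0080. Fibronectin (fn1), the matrix on which involuting mesoderm moves, rose from 45.2 to 98.6 RPKM, and the protocadherin pcdh8.2 from 0.432 to 66.7 RPKM. cdh1 (E-cadherin) had 0.833 and 36.8 RPKM, beside 216 and 163 RPKM of cdh3, the maternal C-cadherin. The integrin subunit itgb1 was at 70.1 and 65.8 RPKM. Of the 13 gastrulation genes that the study names, cer1 was listed at 0 at stage 9 and the other 12 rose (median 5.59). That list was chosen on these samples, so its direction is not independent evidence, and 3 of its members had 1 RPKM or more at stage 9.

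Genes for RNA binding and splicing rose at high levels. Of 48 genes of the spliceosome, SR and hnRNP families, all of which had 1 RPKM or more at stage 9, 24 rose and 1 fell as deposited, and 40 rose and none fell after centring (median 1.09). Their share of the summed RPKM was 1.70% at stage 9 and 8.46% at stage 12. hnrnpa1, which packages nascent RNA, rose 30.6-fold, from 88.9 to 2723 RPKM, on scaffold 2 (89776395 to 89786348). hnrnpab rose from 308 to 2122 RPKM, hnrnpa2b1 from 91.8 to 1410 RPKM, hnrnpk from 46.1 to 552 RPKM, srsf1 from 107 to 825 RPKM and the splice site factor u2af1 from 20.7 to 330 RPKM. The gene that fell was the U2 component sf3a2, from 290 to 125 RPKM, and centred it was within 2-fold.

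Several of these messages were high in polyA oocyte and low in between. hnrnpa1 was at 326 RPKM in polyA oocyte, 193 in stage 6, 88.9 in stage 9 and 2723 in stage 12, and at 39.8, 19.6 and 64.2 RPKM in RZ oocyte, RZ stage 6 and RZ stage 9. hnrnpab had 1316 RPKM in polyA oocyte, 170 in stage 6 and 308 in stage 9. Among abundant RNA- and DNA-binding proteins outside the list, fus rose from 78.9 to 1266 RPKM, the cold-inducible protein cirbp from 210 to 2052 RPKM and the chromatin protein hmgb2 from 337 to 2489 RPKM. Along with hnrnpa1, hnrnpab, hnrnpa2b1 and eef1a1o these were among the 10 most abundant genes of stage 12.

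Genes of translation and energy metabolism differed by group. Of 79 cytosolic ribosomal protein genes, 32 fell and 4 rose as deposited and 4 fell and 37 rose after centring (median -0.51), so that the direction of the group depended on the scaling. rps20 fell from 2289 to 345 RPKM and was among the 10 most abundant genes of stage 9. Mitochondrial ribosomal protein genes fell in 56 of 70 cases with no rise (18 fell and 7 rose after centring, median -1.80), led by mrpl54 (77.3 to 2.70 RPKM) and mrps17 (114 to 4.84 RPKM). All 79 cytosolic and all 70 mitochondrial members had 1 RPKM or more at stage 9. The shares that fell were 40.5% and 80%, beside 63.7% of all such genes. Nuclear genes of oxidative phosphorylation had a median of -1.40, beside -1.39 for all genes, with 44 of 72 lower and 5 higher (11 and 18 after centring). All 72 had 1 RPKM or more at stage 9, and the shares of 61.1% and 6.94% were near those of all such genes (63.7% and 7.01%).

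Of 62 genes with symbols of translation factors, a list that by its symbols also holds Argonaute and eIF2 kinase genes, 25 fell and 10 rose (8 and 28 after centring, median -0.64). Over the 61 with 1 RPKM or more at stage 9, 41% fell and 14.8% rose, beside 63.7% and 7.01% of all such genes. Of 32 genes with symbols of proteasome subunits, which also hold psmc3ip, 8 fell and 1 rose (3 and 10 after centring, median -0.60). All 32 had 1 RPKM or more at stage 9, and 25% fell and 3.12% rose. cox3, named as subunit III of cytochrome c oxidase, which the mitochondrial genome encodes, was the most abundant gene of stage 9 and went from 6040 to 2378 RPKM, a log2 change of -1.34 that became 0.03 with libraries scaled to the median of genes present in all polyA libraries. Its entry lies on scaffold 6 (82848602 to 82849075), and whether its reads came from mitochondrial RNA was not tested. Histone genes were split, with 6 of 22 higher and 7 lower (11 and 5 after centring, median -0.36). Over the 20 with 1 RPKM or more at stage 9, 20% rose and 35% fell, beside 7.01% and 63.7% of all such genes. hist1h2am, which has the symbol of a replication-dependent histone, fell from 39.1 to 1.91 RPKM. It had 107 RPKM in polyA oocyte and 17.7 RPKM in RZ oocyte. hist1h2ad and hist1h2al had 4.77 and 1.23 RPKM in polyA oocyte and 32.1 and 47.6 RPKM in RZ oocyte. Whether hist1h2am is of the replication-dependent kind was not tested. The variants h2afv and h1fx rose from 90.7 to 435 and from 12.0 to 58.3 RPKM. Histone copies share sequence and most replication-dependent histone messages carry no poly(A) tail, so that their levels here are uncertain.

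Pairs of related genes were compared within each library, where scaling between libraries cancels. The first gene of a pair was taken as the maternal form from general knowledge, but in some pairs the second was as high in the oocyte: cdc25a had 158 RPKM in RZ oocyte beside 26.2 RPKM of cdc25c, and fbxo5 had 94.4 RPKM beside 86.8 RPKM of fbxo43. Of 21 pairs, 19 had a ratio in both libraries, and in 17 of these the ratio of the second gene to the first was higher at stage 12. Placing the maternal form first favours this direction. The first genes btg4, zfp36l2.1 and fbxo43 were among the 15 largest falls, and oct60 is the first gene of more than 1 pair. The count is therefore not independent evidence. The log2 ratio of btg1 to btg4 went from -3.49 to 7.69, that of oct91 to oct60 from -4.90 to 4.62, and that of the APC/C inhibitors fbxo5 to fbxo43 from -0.87 to 4.80. The order of the members reversed in other pairs too. ccna2 over ccna1 went from -2.10 to 1.13 although ccna2 itself fell from 264 to 50.6 RPKM, and wnt8a over wnt11b went from -4.08 to 1.05. For the lamins, the oocyte form lmnb3 fell from 54.6 to 5.48 RPKM beside 283 and 284 RPKM of lmnb1. eef1a1 over eef1a1o was nearly the same, -3.91 and -3.83. The ratios of zar1l to zar1 and of cdc25a to cdc25c were lower at stage 12 (2.14 to 0.54 and 2.46 to 0.67).

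**Figure D4:**
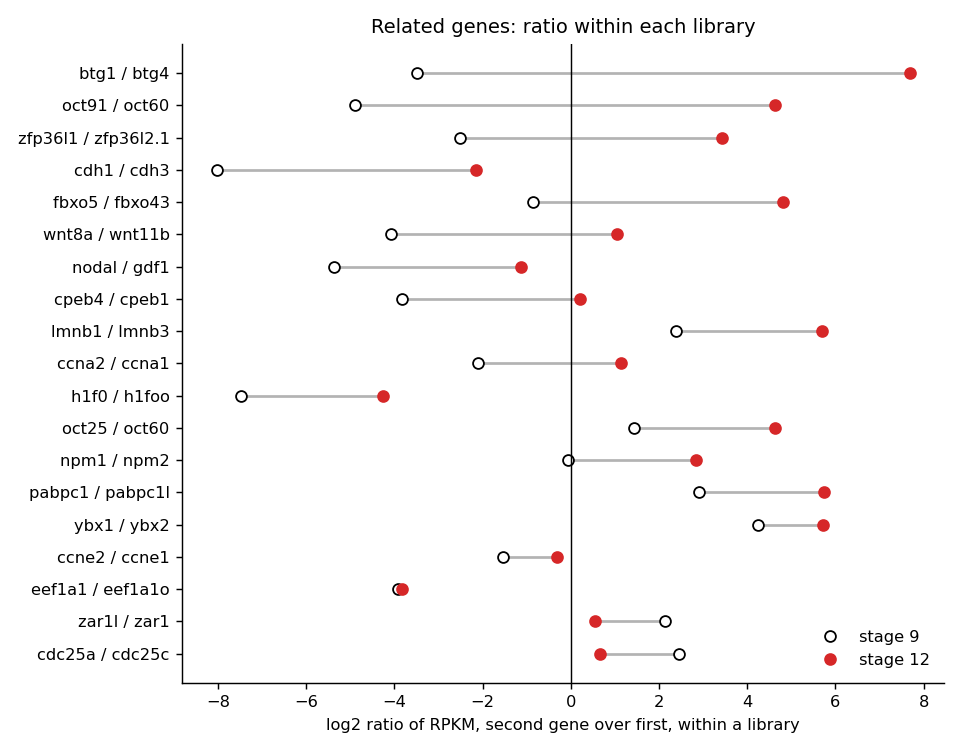
Log2 ratio of RPKM of the second gene to the first within a library (x axis) for 19 pairs of related genes (y axis). Open circles are polyA stage 9, filled circles polyA stage 12, and a line joins the libraries. The ratio moved to the right in 17 pairs, by 11.2 for btg1 over btg4 and by 0.08 for eef1a1 over eef1a1o, and to the left for zar1l over zar1 and cdc25a over cdc25c.

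The classes made from the centred change were then described in libraries that the change does not use. From polyA stage 6 to polyA stage 16, the median log2 change was 1.98 in the genes that rose, 0.35 in those between and -0.83 in those that fell. From RZ oocyte to RZ stage 9 the medians were 0.09, 0.11 and 0.11. From polyA stage 16 to polyA stage 30 they were -0.25, 0.14 and 0.36. In RZ oocyte, 70.7% of the genes that rose, 96.6% of those between and 95.7% of those that fell had at least 1 RPKM, so that most genes of each class had maternal RNA. With classes from the deposited change this share was 43.6% in the genes that rose and 96.1% in those that fell. Across genes, Spearman's rho between the change and that from polyA stage 6 to polyA stage 16 was 0.59 (9748 genes), and with the change from RZ oocyte to RZ stage 9 it was 0.01 (9723 genes). Genes are not independent replicates and these values describe the libraries only.

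**Figure D5:**
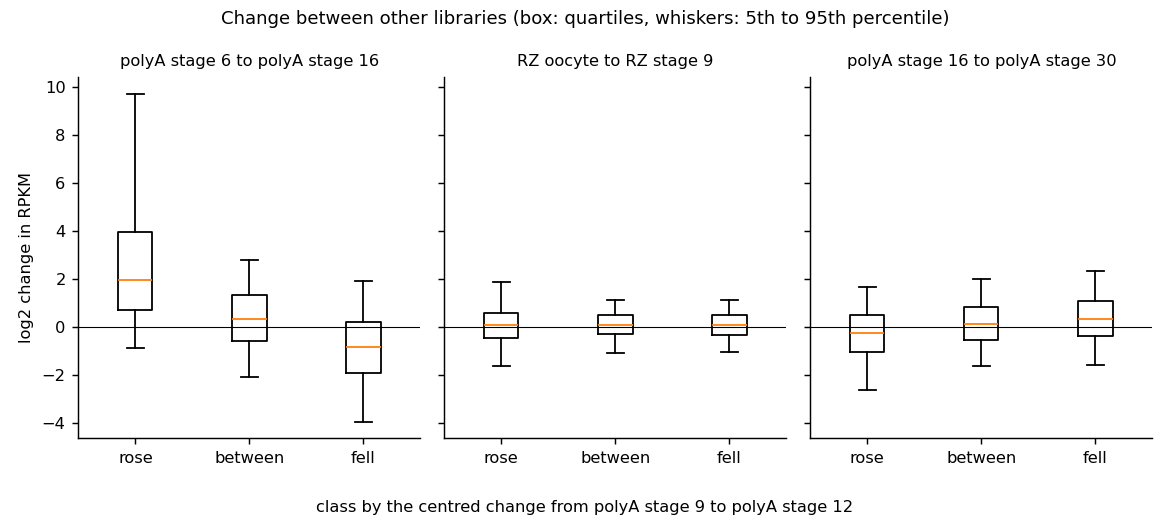
Log2 change in RPKM (y axis) between libraries that were not used to make the classes, for genes that rose, stayed between or fell by the centred change from polyA stage 9 to stage 12 (x axis). Boxes are quartiles with the median as a line, and whiskers run from the 5th to the 95th percentile. The medians differ from polyA stage 6 to stage 16, at 1.98, 0.35 and -0.83, and are nearly level from RZ oocyte to RZ stage 9, at 0.09, 0.11 and 0.11. The class that rose includes the 702 genes that passed the filter only through stage 12.

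Gene groups also differed in the library with their highest level. Over the 6 polyA libraries, 20 of 45 mesoderm and endoderm genes were highest at stage 12. Of these 45, 26 were under 1 RPKM at stage 9 and could pass the filter only through stage 12. Of the cytosolic ribosomal protein genes, 71 of 79 were highest at stage 30. The mitochondrial ribosomal protein genes differed from these, with 49 of 70 highest in the oocyte. The share over all genes is not given, so that these counts set the lists beside each other only. Of all genes that rose as deposited, 41.2% were highest at stage 16 and 28.7% at stage 12. Of all genes that fell, 54.6% were highest at stage 9 and 32.9% in the oocyte. By the rule, a gene that rose cannot be highest at stage 9, nor one that fell at stage 12. These levels were not scaled between libraries, and the summed RPKM was 320132 in polyA oocyte, 196370 at stage 12 and 346421 at stage 30.

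The change varied with the length of the gene on the genome. Genes were put in 4 equal groups by their span from first to last exon. In the group with the shortest span 39.6% rose and 22.5% fell after centring, and in the group with the longest span 18.9% rose and 33.2% fell. The shares in between were 30.2% and 25.4% for rises and 23.2% and 26.8% for falls. Spearman's rho between span and change was -0.17 across the 10032 genes, and it was -0.14 over genes with 1 RPKM or more in both libraries and -0.17 over genes with at least 1 RPKM in RZ oocyte.

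Genes listed at 0 on one side completed the comparison. The named genes with the highest stage 12 level among those listed at 0 at stage 9 were cer1 (84.1 RPKM), the Notch target hes3.1 (25.5 RPKM), the segmentation gene mespb (21.5 RPKM), the collagenase mmp1 (16.8 RPKM), the Kit ligand kitlg (13.6 RPKM), hesx1 (12.4 RPKM), the homeobox gene sebox (10.5 RPKM), the BMP ligand gdf2 (7.93 RPKM) and the transporter slco1a2 (7.55 RPKM). Those listed at 0 at stage 12 were lower on the other side, from mllt11 (3.99 RPKM at stage 9) and plxdc1 (3.70 RPKM) to tnnc2 (2.11 RPKM) and pax7 (2.03 RPKM). tnnc2 is the muscle gene with 596 RPKM at stage 30.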

How the data were processed

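The deposited table gives RPKM per gene, which the authors computed as the mean RPKM of all non-redundant exons of all isoforms after alignment with BWA 0.6.1 to the JGI 7.1 assembly, leaving out reads with several map positions. Strand was not kept in the cDNA, so overlapping genes on opposite strands cannot be told apart. The values were used without a pseudocount. Changes are log2 ratios of the 2 polyA libraries, and centring subtracts the median change. With 1 pooled library per stage no test was made.

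Members and gene lists were chosen with earlier results of these data known. Genes were named by list or pair membership (at least 1 RPKM in one library), among the 15 largest rises and falls (above 0 in both libraries, at least 10 RPKM in the higher), among the 10 highest genes of each library, or among the 10 highest of those listed at 0 in the other library. znf33b, znf350, prdm9, gatm and psmc3ip were named after their values were seen, and genes with a positional name were counted but not named. A gene in several lists counts in each. Of the 15288 symbols, 13500 matched the RefSeq gene list of assembly UCB_Xtro_10.0, which was used for names only. Coordinates are 1-based.

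Mapped reads of each library were searched over all genes as the total that best turned low values into whole reads. At these totals 265 genes came within 0.001 of whole numbers in both libraries and were taken as single-exon genes. Their intervals are 95% Wilson intervals of counting error. On simulated data all 100 raised and all 100 lowered genes were called. Neither the share of false calls nor the result for genes at low levels is given for these data. The simulation therefore shows only that the code finds changes that were put in. It does not measure the error of the calls in the libraries, because replicates were pooled. Alternatives changed the filter, the pseudocount, the scaling and the threshold. Analyses used Python 3.11.15, numpy 2.4.6, pandas 2.3.3, scipy 1.17.1 and matplotlib 3.10.9. Long non-coding RNA models, RT-qPCR and sequences were not analysed here. Some genes that these rules take in are not reported here.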

Additional observations from a re-analysis of the deposited data

How the results depend on the processing

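The number of genes that rose was 858 with a filter of 5 RPKM, 654 with 1 RPKM required in both libraries and 867 at 4-fold, and 3550 fell at 4-fold. After centring, 1597 rose and 1092 fell at 4-fold. Scaling mattered most for the deposited counts: 2068 rose and 3940 fell with libraries divided by summed RPKM without the top 1% of genes (153 genes), and 2840 rose and 2688 fell with libraries divided by their median over 6789 genes, those at 1 RPKM or more throughout the 6 polyA libraries. The median change was -1.22 without a filter, -1.27 with 1 RPKM in both libraries, -1.10 on the log2(RPKM + 1) scale, -0.80 with summed RPKM, -0.57 without the top 1% and -0.018 with the median scaling. Those scalings add 0.59, 0.82 and 1.37 to every log2 change, so that by construction every smaller fall changes sign, those of named genes within 2-fold included. Of the named genes past 2-fold, the median scaling changed the sign of 6: cox3 (0.026, which is also its list's median), bmpr1a (0.29), cyp26a1 (0.073), fbxo5 (0.24), sf3a2 (0.16) and zic2 (0.094). Of 1428 values of named genes under an alternative, 1387 stayed on the same side of 2-fold. Settings that change only the filter or leave out genes keep the value of every remaining gene as it was. Their values are the same by construction, so that this count does not measure how stable the changes are.

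Of 250 list medians under an alternative, taken relative to all genes, 141 moved by less than 0.1. The scalings add the same amount to every gene, so that under them no relative median could move. The 141 include these medians, and the count is therefore not a measure of stability. None of those at 1 or more in size in the main setting changed sign. Smaller medians were not checked for a change of sign. With classes from the deposited change, the median change from polyA stage 6 to stage 16 was 4.08 in the genes that rose and -0.26 in those that fell, and with a threshold of 4-fold it was 3.37 and -1.36. The share of the genes that rose with at least 1 RPKM in RZ oocyte was 43.6% and 51.5% under these settings. The depth limits the size of rises from under 0.224 RPKM per kb at stage 9. No paired analysis was possible because each stage has 1 pooled library. No replicate could be left out for the same reason.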
